A study of Mus musculus with 12 samples.

Results

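Replication-dependent histone genes encode the histones that cells make in bulk while they copy their DNA. They were taken as the genes of the count files whose names begin with Hist1h, Hist2h, Hist3h or Hist4h, 59 of 22556 genes: 6 for the linker histone H1, 14 for H2A, 17 for H2B, 10 for H3 and 12 for H4. By position, 49 belonged to the Hist1 cluster on chromosome 13, 6 to Hist2 on chromosome 3, 3 to Hist3 on chromosome 11, and 1, Hist4h4, to chromosome 6.

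A nucleosome is DNA wrapped around a core of H2A, H2B, H3 and H4, and H1 binds the DNA that links nucleosomes. The replication-dependent genes have short coding sequences mostly without introns, are transcribed mainly in S phase at histone locus bodies built around NPAT, and most of their transcripts end in a stem-loop bound by SLBP in place of a poly(A) tail. Replication-independent histones, such as the variants encoded by H3f3b and H2afz, come from polyadenylated messages made through the cell cycle.

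The libraries hold RNA bound to chromatin, from female mouse embryonic stem cells of a 129S × Cast background (iXist-ChrX) grown on mitomycin-inactivated fibroblast feeders and, by the methods of the study, pre-plated to free them of feeders before extraction. In every line a TetOn promoter replaces that of Xist on the 129S allele, and doxycycline (Dox) for 24 h switches it on. The groups were WT (Xist otherwise intact, 1 library without Dox and 1 with), XistDelA (A-repeat of Xist deleted; clones C1, 2C2 and C11, each without and with Dox) and XistΔm6A/11C (5′ m6A region of Xist deleted; replicates 1 and 2 without and with Dox; called 11C below). The labels do not say whether XistDelA is the precise or the larger A-repeat deletion that the paper describes, or whether its 3 clones carry the same one. 11C is 1 line whose replicates the study calls biological without saying what set them apart, so a p value that rests on them measures the spread within that line. The deletion in 11C and anything else in which that line or its libraries differed cannot be told apart.

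Stem cell identity was read from 12 markers of embryonic stem cells, of which 11 had counts. Sox2 had 0 counts in all 12 libraries. Reads that fit several genes were not counted in these files, so this does not show that Sox2 RNA was absent. The most abundant of the markers was Zfp42. Their summed level was 2471 CPM (counts scaled to a common library total) without Dox and 2602 with Dox in WT, 2389 and 2427 in C1, 2540 and 2775 in 2C2, 2614 and 2681 in C11, 2405 and 2919 in 11C replicate 1, and 2129 and 2172 in 11C replicate 2. All 16 markers of fibroblast feeders had counts in at least 1 library, with Fbn1, a fibre protein of the extracellular matrix, the most abundant. Their sum, in the same order, was 85.5 and 81.0, 95.2 and 91.5, 86.2 and 90.6, 90.02 and 90.8, 79.5 and 74.5, and 64.8 and 58.0 CPM. The summed feeder level was thus lower in each 11C library than in each of the other 8, though not every single marker was (Mmp2 and Pdgfrb were higher in each 11C library), and the stem cell markers overlapped between these sets of libraries.

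The members share sequence features that the choice by name did not use. A RefSeq promoter (build GRCm38.p6, 250 bases before the start) was at hand for 53 of the 59. On either strand, the CCAAT box was in 45 of these 53 and in 33.9% of 32851 mouse promoters, and the core of the TATA box (TATAAA) was in 28, against 12.4%. The octamer (ATTTGCAT) was in 13, against 1.60%, and these were 7 of 14 H2A and 6 of 14 H2B promoters. The H1 box (AAACACA), known from promoters of linker histone genes, was in 9, against 6.25%, and 5 of these were among the 6 H1 promoters. All promoters of H1, H2A, H2B and H3 genes in the table held a CCAAT box, but only 3 of 11 for H4 did. Such a match describes the letters only.

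Many H2A and H2B genes face away from each other across a shared promoter, and 11 such pairs had starts 171 to 304 bases apart in the count files. The stretch between the RefSeq starts is shown for the pair whose genes differed most from each other between lines (chosen after values were seen) and, as the 250 bases before Hist1h2ba, for the pair known from testis. The promoter of Hist2h2bb, the H2B gene with the highest level per length, is shown with them, because it holds a CCAAT box and the octamer. Capitals mark these 4 motifs, on either strand.
Hist1h2ak and Hist1h2bn, chr13:21753913-21754075, minus strand, GRCm38.p6: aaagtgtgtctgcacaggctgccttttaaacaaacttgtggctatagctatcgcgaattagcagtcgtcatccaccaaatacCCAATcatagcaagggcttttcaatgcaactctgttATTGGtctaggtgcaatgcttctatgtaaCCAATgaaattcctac
Hist1h2aa and Hist1h2ba, chr13:23934157-23934406, minus strand, GRCm38.p6: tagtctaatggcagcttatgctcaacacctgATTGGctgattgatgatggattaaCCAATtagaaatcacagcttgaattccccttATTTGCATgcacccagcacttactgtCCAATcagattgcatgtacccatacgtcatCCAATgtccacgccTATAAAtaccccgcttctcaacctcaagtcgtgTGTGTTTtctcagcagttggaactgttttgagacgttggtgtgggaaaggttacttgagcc
Hist2h2bb, chr3:96269450-96269699, plus strand, GRCm38.p6: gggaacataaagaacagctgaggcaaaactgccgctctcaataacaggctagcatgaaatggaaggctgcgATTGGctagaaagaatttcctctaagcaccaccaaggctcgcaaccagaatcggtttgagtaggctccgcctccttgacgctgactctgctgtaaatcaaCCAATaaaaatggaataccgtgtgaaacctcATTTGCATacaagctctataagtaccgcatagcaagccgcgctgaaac

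A stem-loop with 6 paired bases was found near the end of the transcript in 18 members, and it took 6 forms, of which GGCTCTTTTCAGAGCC was in 9 genes and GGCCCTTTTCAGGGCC and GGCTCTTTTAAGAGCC in 3 each. Only the last 100 bases of each annotated transcript were searched. The annotated transcript of Hist1h2ak had 393 bases, against a span of 537 in the count files, and that of Hist1h1d 7425, against 777. A transcript annotated short of the loop, or far past it, could not show one. The other members were thus not shown to lack it. The stem-loop is shown for 1 gene of each core histone, because it sets these messages apart from polyadenylated ones. Capitals mark the stem and loop (GRCm38, plus strand).
Hist1h2ab, chr13:23751567-23751592: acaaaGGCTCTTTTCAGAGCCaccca
Hist1h2bb, chr13:23747198-23747223: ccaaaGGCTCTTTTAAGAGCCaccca
Hist1h3b, chr13:23752815-23752840: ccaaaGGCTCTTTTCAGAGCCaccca
Hist1h4h, chr13:23531453-23531478: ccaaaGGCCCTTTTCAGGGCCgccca

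The genes are also alike in their coding sequence. Of the 81-base words of a member's transcript, the length of 1 read, a median of 32.9% also occurred in another gene, with 93.4% at most, in Hist1h3h. There were 7 members with no shared word and 18 with more than 50% shared. Reads that fit several places were not counted in these files, and how far this lowered the counts of the 18 was not measured.

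All 59 members had counts in every library, and 58 averaged 10 counts or more; the other was Hist3h2bb-ps, an H2B pseudogene. Together they took 363 CPM in WT without Dox and 292 with Dox. They took 390 and 236 in C1, 388 and 349 in 2C2, and 393 and 342 in C11. In 11C they took 1045 and 1242 in replicate 1 and 1376 and 1098 in replicate 2. The 4 libraries of 11C were high in both states and did not overlap the other 8, and their mean was 3.46 times that of the others. Counts of whole cultures cannot tell fewer cells in S phase from less histone RNA per cell.

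Levels per length differed widely within each family. In CPM per kilobase, averaged over the 12 libraries, the linker histone genes ran from 1.37 for Hist1h1t, the testis form, to 60.7 for Hist1h1c, 73.2 for Hist1h1d and 119 for Hist1h1a, which are somatic forms. H2A genes were low, from 1.16 (Hist1h2ad, chosen after values were seen) to 8.40 (Hist1h2ab), 8.82 (Hist3h2a) and 10.98 (Hist2h2ac). H2B genes reached 23.1 (Hist1h2bg), 23.6 (Hist1h2bb) and 104.5 (Hist2h2bb). The lowest H2B value, 0.276, was that of Hist1h2be, whose annotated span is 37456 bases. H3 genes lay between 5.50 (Hist2h3b) and 58.8 (Hist1h3e), with 23.4 for Hist1h3f and 19.2 for Hist1h3g. H4 genes lay between 2.03 (Hist1h4j, chosen after values were seen) and 68.2 (Hist1h4d), with 31.7 for Hist1h4i and 29.9 for Hist1h4f. Over the 12 libraries H2B, H3 and H4 thus each had 1 gene well above the rest of its family. These means lean on 11C, so the order of genes differed in other libraries. In WT without Dox, Hist1h3a (9.49) and Hist1h3c (7.39) stood above Hist1h3f (5.20) and Hist1h3g (5.33). Hist1h1b (34.8) stood there above Hist1h1c (24.2). Hist1h3a, Hist1h3c and Hist1h1b were chosen after values were seen.

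**Figure D1:**
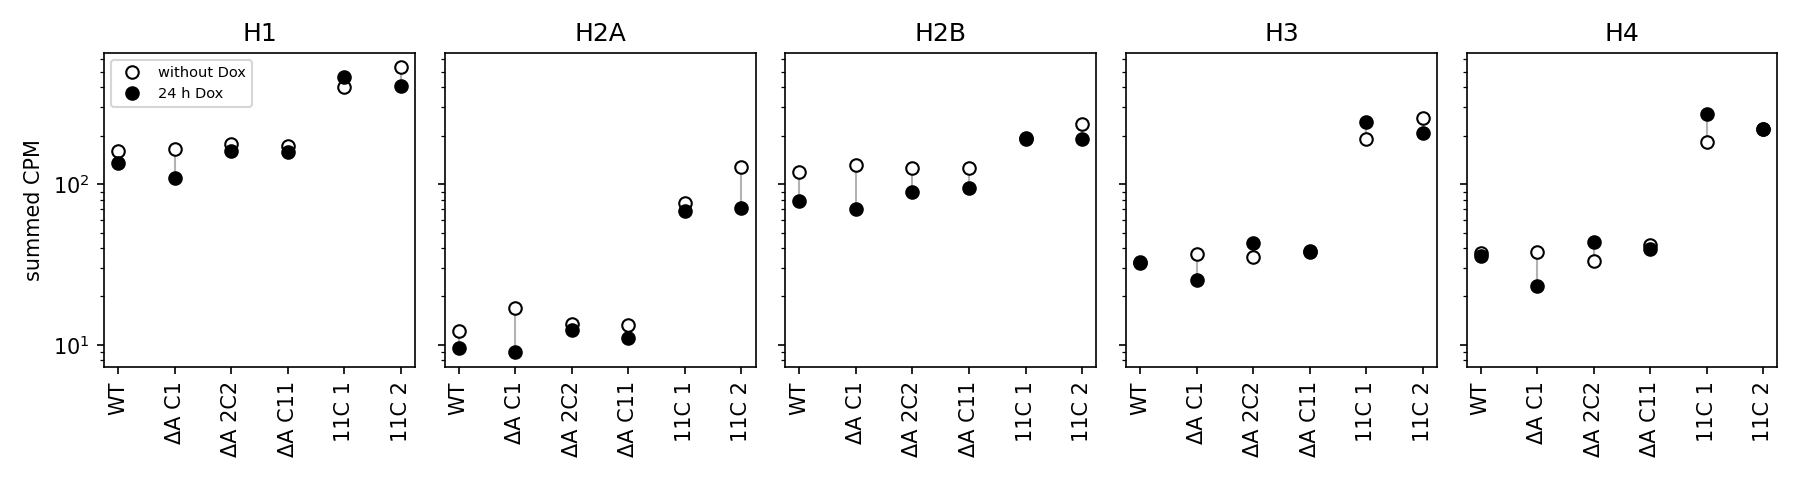
Summed CPM (log scale) of the members of each histone family, by line and replicate, without Dox (open) and after 24 h Dox (filled). The 11C libraries lie above the others in all 5 panels, least so for H2B.

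Each family was higher in 11C than in any other library. H3 genes summed to 32.8 and 32.4 CPM in WT (without, then with Dox), 36.6 and 25.2 in C1, 35.4 and 43.1 in 2C2, 38.7 and 38.0 in C11, 189.9 and 243 in 11C replicate 1, and 258 and 208 in replicate 2. H4 genes summed, in that order, to 37.2 and 35.7, 37.8 and 23.3, 33.4 and 43.6, 41.6 and 39.8, 182 and 272, and 220.1 and 220.4. H2A genes summed to 12.2 and 9.50, 16.9 and 8.99, 13.5 and 12.5, 13.3 and 10.99, 76.6 and 68.0, and 129 and 70.6. The 3 families of core histones were thus several times higher in every 11C library, with ratios of mean levels, 11C over the other 8, of 6.36 for H3, 6.12 for H4 and 7.03 for H2A. H2B, their partner in the nucleosome core, was less far apart: 119.5 and 78.2 in WT, 132 and 69.7 in C1, 126 and 89.0 in 2C2, 127 and 95.01 in C11, 194.5 and 192 in 11C replicate 1, and 236 and 190.2 in replicate 2, a ratio of 1.94. H1 genes took 162 and 136, 167 and 109, 179 and 160.4, 173 and 158, 402 and 467, and 534 and 409.5, a ratio of 2.92. By cluster, the ratio was 3.72 for Hist1, 1.76 for Hist2, 4.75 for Hist3 and 11.7 for Hist4, and in none of the 4 clusters did the ranges overlap. Hist2h2bb alone made up most of the Hist2 sum, with 51.3 of 57.7 CPM in WT and 72.4 of 96.4 in 11C replicate 1, without Dox. The Hist2 ratio thus describes mainly that gene.

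Gene by gene, the 4 11C libraries all lay above the other 8, in CPM, for 50 of the 58 members that averaged 10 counts or more, and all below for none; of all 14993 such genes 15.8% lay above, and of those outside the family 11.3% lay below. The 50 were all 6 H1 genes, 13 of 14 H2A, 10 of 16 H2B, all 10 H3 and 11 of 12 H4 genes. The mean of 10 counts was taken over all 12 libraries. Among the 50, Hist1h2an, Hist1h2ah and Hist1h2ad reached it only through 11C, with 2 to 16 counts per library in the other 8. The exceptions were Hist2h2ab, Hist1h4j and the H2B genes Hist3h2ba, Hist1h2bn, Hist1h2bk, Hist1h2bj, Hist1h2bc and Hist2h2bb (those outside the naming rule chosen after values were seen). So most of the genes that overlapped between the lines encode H2B.

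Without Dox, 11C had more RNA from most histone genes than XistDelA did, with calls in all 5 families and all 4 clusters. Hist1h3e, the H3 gene with the highest level per length, stood at 8.31, 7.58 and 8.47 CPM in the XistDelA clones C1, 2C2 and C11, and at 57.7 and 78.7 in the 11C replicates; WT was at 6.55. Hist4h4, the H4 gene outside the clusters, stood at 1.48, 1.09 and 1.53 against 12.4 and 19.4, with WT at 1.74. Hist1h2ac, an H2A gene, stood at 0.505, 0.654 and 0.652 against 5.66 and 17.2, with WT at 0.481. For these 3 genes the 11C replicates were far above the clones and WT, and replicate 2 was above replicate 1.

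By edgeR quasi-likelihood with Benjamini-Hochberg adjustment, 46 of 59 members were higher in 11C than in XistDelA without Dox at adjusted p under 0.05 and none lower; of all 15745 genes tested 19.8% were called, 9.99% higher and 9.86% lower. The 46 include Hist1h2an and Hist1h2ah (the latter named after values were seen), which were too low to test within XistDelA. There they had 7 to 10 and 6 to 16 counts per library without Dox, so these calls rest on few counts. DESeq2 called 45 higher and 1 lower, and 51 members had an unadjusted p under 0.05. The median log2 difference over the members was 1.62, and 0.04 over all genes tested. Hist1h3e was higher by 2.97 ± 0.22 log2 (estimate ± SE; adjusted p = 0.000155) and Hist4h4 by 3.44 ± 0.33 (adjusted p = 0.000633). Hist1h2ac was higher by 4.15 ± 0.49 (adjusted p = 0.00102), and Hist1h2af, another H2A gene, by 4.67 ± 0.61 (adjusted p = 0.00136). In XistDelA without Dox, Hist1h2ac had 13 to 17 counts per library and Hist1h2af 5 to 15, so the sizes of these differences also rest on few counts. Without 11C replicate 2, 32 members were called higher and 1 lower.

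The families differed in how many members were called without Dox. All 10 H3 genes (median log2 difference 2.41), 11 of 12 H4 genes (2.38) and 13 of 14 H2A genes (2.86) were higher in 11C, against 4 of 6 H1 genes (1.20) and 8 of 17 H2B genes (1.18). Among linker histones, Hist1h1c was higher by 2.42 ± 0.30 log2 (edgeR, adjusted p = 0.00113) and Hist1h1d by 1.47 ± 0.23 (adjusted p = 0.00303). Hist1h1a was higher by 0.92 ± 0.18 (adjusted p = 0.00808), and the testis form Hist1h1t did not pass (0.89 ± 0.34, adjusted p = 0.0895). Hist2h2bb, the H2B gene with the highest level per length, did not pass either, at 0.08 ± 0.14 (adjusted p = 0.729). The other Hist2 genes were mixed: Hist2h3b was higher by 3.40 ± 0.40, Hist2h4 by 2.45 ± 0.26 and Hist2h2ac by 1.41 ± 0.29, while Hist2h2ab (−0.08 ± 0.48) and Hist2h2be (1.34 ± 0.43, adjusted p = 0.0529) did not pass. In Hist3, Hist3h2a was higher by 2.29 ± 0.44 and Hist3h2ba, at 1.19 ± 0.51, did not pass.

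**Figure D2:**
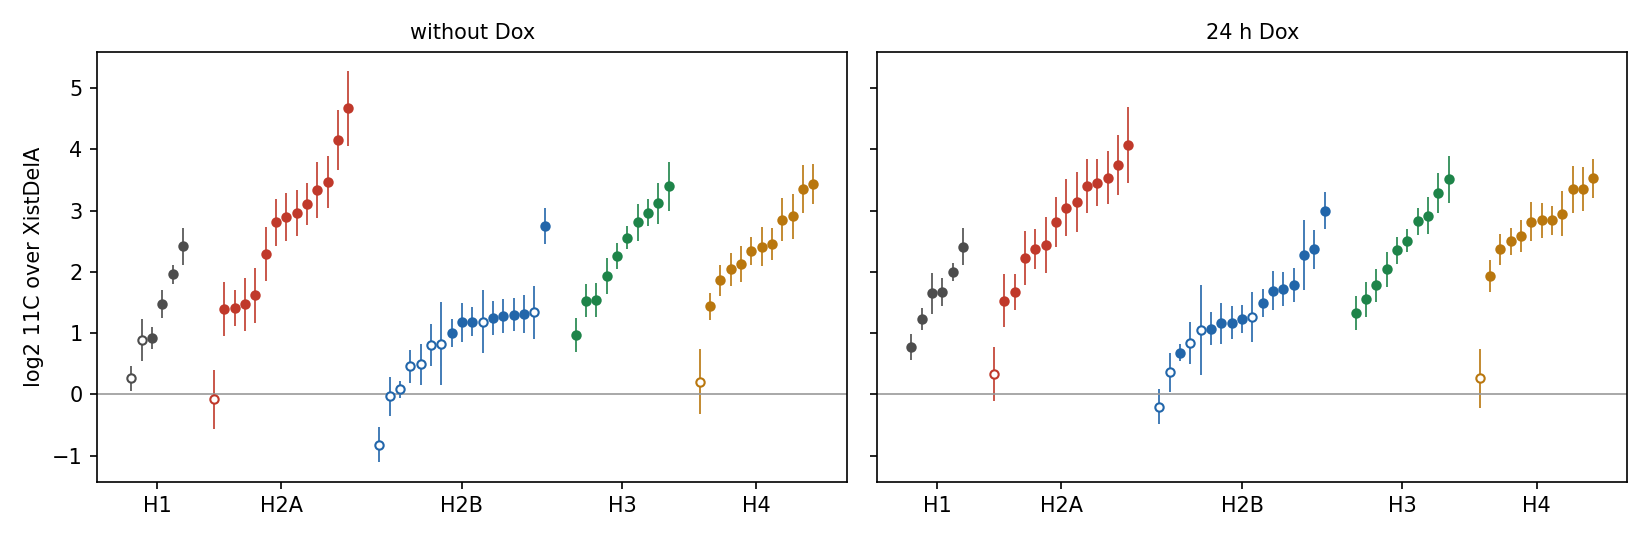
Log2 difference between 11C and XistDelA for each member, with its standard error, grouped by family and ordered by size, without Dox (left) and after 24 h Dox (right). Filled points passed the edgeR test; most open points are H2B genes.

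With Dox, the same direction held in other libraries of the same lines, which share lines and clones with those without Dox. Hist1h3e stood at 6.77, 11.1 and 8.45 CPM in C1, 2C2 and C11 and at 70.9 and 60.4 in the 11C replicates, with WT at 7.59. Hist4h4 stood at 1.02, 1.47 and 2.15 against 19.3 and 18.3, with WT at 1.40. Hist1h2ac stood at 0.291, 0.550 and 0.619 against 6.55 and 7.26, with WT at 0.396. The 11C replicates were again above all clones and WT for these genes, and here the replicates were close to each other.

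By edgeR quasi-likelihood with Benjamini-Hochberg adjustment, 52 of 59 members were higher in 11C with Dox and none lower; 16.6% of 15745 genes were called, 7.92% higher and 8.68% lower. The 52 include Hist3h2ba, Hist1h2an and Hist1h2ah, which were too low to test within XistDelA. There they had 2 to 6 counts per library with Dox, so these calls rest on few counts. DESeq2 called 52 higher and none lower, and 54 members had an unadjusted p under 0.05. The median log2 difference was 2.27 over the members and 0.03 over all genes tested. All 6 H1 genes (median 1.66), 13 of 14 H2A (2.94), 12 of 17 H2B (1.23), all 10 H3 (2.43) and 11 of 12 H4 genes (2.83) were higher. Hist1h2ac was higher by 3.75 ± 0.49 log2 (adjusted p = 0.0017), Hist4h4 by 3.53 ± 0.32 (adjusted p = 0.000455) and Hist1h3e by 2.83 ± 0.22 (adjusted p = 0.000143). In XistDelA with Dox, Hist1h2ac had 8 to 17 counts per library, so the size of its difference rests on few counts. The 7 members not called, named after their values were seen, were Hist2h2ab (0.34 ± 0.44), Hist2h2be (1.27 ± 0.41), Hist1h4j (0.26 ± 0.48), Hist1h2bn (−0.20 ± 0.28), Hist1h2bk (0.84 ± 0.34), Hist1h2bj (0.36 ± 0.32) and the pseudogene Hist3h2bb-ps (1.05 ± 0.74).

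The other named members of the core families differed as follows, without and then with Dox, and all 8 of these passed the edgeR test in both states. Among H2A genes, Hist1h2af was at 4.67 ± 0.61 and 4.07 ± 0.62 log2, Hist1h2ak at 3.47 ± 0.42 and 3.54 ± 0.43, and Hist1h2ab at 3.11 ± 0.34 and 2.37 ± 0.33. Hist1h2af had 3 to 15 counts per library in XistDelA, so the size of its difference rests on few counts. Among H3 genes, Hist1h3f was at 3.12 ± 0.33 and 3.29 ± 0.33 and Hist1h3g at 2.81 ± 0.30 and 2.92 ± 0.30. Among H4 genes, Hist1h4d was at 2.34 ± 0.23 and 2.84 ± 0.23, Hist1h4i at 1.86 ± 0.25 and 2.37 ± 0.25, and Hist1h4f at 2.04 ± 0.27 and 1.94 ± 0.26. These 8 were named for a high level per length over all 12 libraries or for a large difference in this comparison. Their sizes therefore follow in part from the choice and do not stand for the families.

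Among H2B genes the differences varied in size, and not all genes passed in both states. The testis gene Hist1h2ba was higher in 11C by 2.75 ± 0.29 log2 without Dox (edgeR, adjusted p = 0.000837) and passed with Dox as well (adjusted p = 0.000565), with the largest difference of any H2B gene in both states. Without and then with Dox, Hist1h2bb was higher by 1.25 ± 0.28 and 1.79 ± 0.28, Hist1h2bg by 1.18 ± 0.32 and 1.69 ± 0.32, and Hist1h2bm by 1.31 ± 0.31 and 2.37 ± 0.32. Hist1h2be, with its long span, was higher by 1.19 ± 0.23 and 1.23 ± 0.23. Hist1h2bc, which can make a polyadenylated message, passed with Dox (1.07 ± 0.27, adjusted p = 0.025) and not without (0.46 ± 0.27, adjusted p = 0.248).

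Hist2h2bb and the linker histone gene Hist1h1b (chosen after values were seen) passed the test with Dox but not without it. Hist2h2bb read 51.3 and 32.2 CPM in WT without and with Dox, 60.8 and 30.7 in C1, 63.4 and 35.5 in 2C2, 53.6 and 38.8 in C11, 72.4 and 63.5 in 11C replicate 1, and 62.7 and 54.6 in replicate 2. It was lower with Dox in all 6 pairs, by less in 11C, so that only with Dox did 11C stand clear of the other lines. With Dox it was higher in 11C by 0.68 ± 0.14 log2 (edgeR, adjusted p = 0.0103) and Hist1h1b by 0.77 ± 0.21 (adjusted p = 0.0312), against 0.08 ± 0.14 and 0.26 ± 0.21 without Dox.

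Within most divergent pairs, the H2A gene differed more between lines than the H2B gene it shares a promoter with. Hist1h2ak read 0.888 and 0.612 CPM in WT (without, then with Dox), 1.44 and 0.546 in C1, 0.697 and 0.623 in 2C2, 1.04 and 0.983 in C11, 8.21 and 7.55 in 11C replicate 1, and 16.9 and 9.82 in replicate 2. Its partner Hist1h2bn, which starts 209 bases away, read in the same order 4.55 and 2.88, 5.67 and 3.64, 4.18 and 4.36, 5.94 and 3.75, 2.41 and 3.50, and 3.97 and 3.65. All 4 values of Hist1h2ak in 11C were above the other 8, while those of Hist1h2bn in 11C lay within or below the range of the others. The ratio of mean levels, 11C over the other 8 libraries, was 12.5 for Hist1h2ak and 0.774 for Hist1h2bn.

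The ratio of the H2A gene exceeded that of its H2B partner in all 11 pairs, with medians of 8.07 and 2.13. For Hist1h2ac and Hist1h2bc the ratios were 17.7 and 1.83, and for Hist2h2ac and Hist2h2be 3.22 and 2.32. Hist1h2ac had 8 to 17 counts per library outside 11C, so its ratio rests on few counts. The pair Hist1h2aa and Hist1h2ba, whose products are known from testis and whose shared promoter is printed above, came closest to moving alike, at 8.07 and 7.82. These ratios describe the libraries and carry no test.

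**Figure D3:**
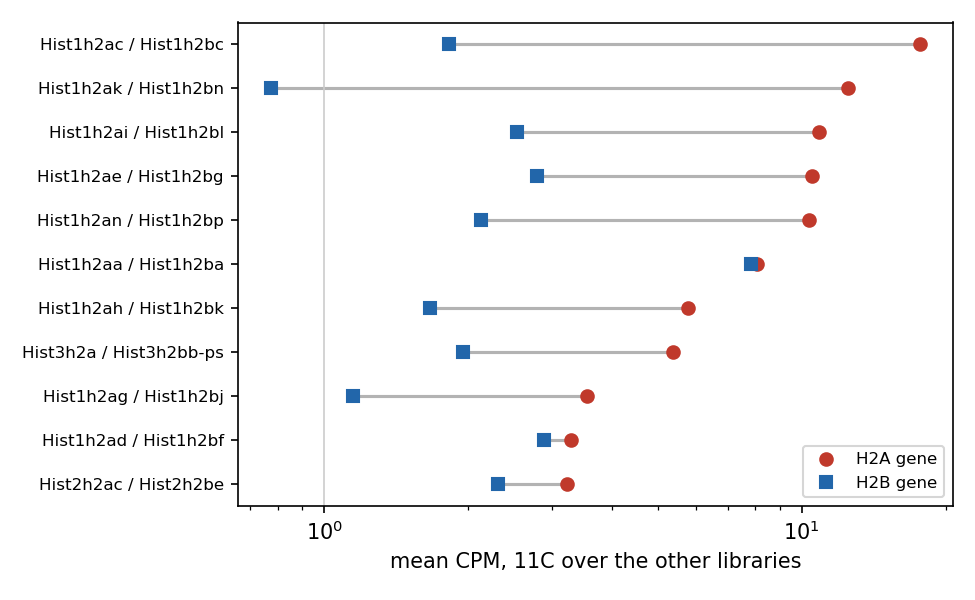
Ratio of mean CPM, 11C over the other 8 libraries (log scale), for the H2A gene (circle) and the H2B gene (square) of each divergent pair. The circle lies to the right of the square in every pair.

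Short structured RNAs stood apart along with the histone genes. Rmrp, the RNA of RNase MRP, read 582 and 777 CPM in WT (without, then with Dox), 666 and 498 in C1, 918 and 913 in 2C2, 874 and 718 in C11, 4056 and 7098 in 11C replicate 1, and 6202 and 7638 in replicate 2. The 11C libraries were far above the others, with no overlap. The 8 RNAs of that list with a row in the files summed to 1142 to 1907 in the other 8 libraries and 6863 to 14294 in 11C, with Rmrp the most abundant. Of 6 tested, 5 were higher in 11C (83.3%) and 1, the spliced snoRNA host Snhg1, was lower (16.7%), in both states. Their medians were 2.67 log2 without Dox and 3.39 with Dox. Over all genes tested, 9.99% were higher and 9.86% lower without Dox, and 7.92% and 8.68% with Dox. Terc, the RNA of telomerase, was higher by 3.21 ± 0.36 (edgeR, adjusted p = 0.000939) without Dox, and by 3.73 ± 0.37 with Dox. Other genes with a span under 1000 bases, 64 tested, had medians of 0.09 without and 0.26 with Dox. Of these, 5 were higher in each state (7.81%) and 4 and 3 lower (6.25% and 4.69%), each under the share of all genes. With those short RNAs left out of the library totals, the median of all genes moved to 0.16 without Dox and 0.13 with Dox, and 47 and 53 members were higher in 11C. What part the make-up of the RNA in the 11C libraries had in the higher histone values was not tested.

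Some members with and some without sequence shared with other genes were called higher in 11C, but without Dox most of those with none did not pass. Over all genes tested, 9.99% were higher without Dox and 7.92% with Dox. What part shared sequence had in these values was not tested. Of the 7 members with no 81-base word in another gene, 3 were higher in 11C without Dox (median 0.92 log2) and 6 with Dox (1.27). Of the 41 members with at most 50% of words shared, 30 and 36 were higher (1.47 and 2.00), and of the 18 with more, 16 in each state (2.17 and 2.44).

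Genes for replication-independent histones were called in both directions. Of 11 tested, 5 were higher (45.5%, against 9.99% of all genes) and 2 lower (18.2%, against 9.86%) in 11C without Dox (median 0.32 log2). With Dox 4 were higher (36.4%, against 7.92%) and 1 lower (9.09%, against 8.68%; median 0.45). H1fx, a linker histone, was higher by 2.43 ± 0.45 (edgeR, adjusted p = 0.00553), H2afx, the H2A form phosphorylated at DNA breaks, by 1.40 ± 0.31, and H2afy, which encodes macroH2A, by 1.18 ± 0.13. H2afz, which encodes the variant H2A.Z, was lower, at −1.10 ± 0.18 (adjusted p = 0.00348). H3f3b did not pass, at 0.21 ± 0.32. As a list, these genes summed to 579 and 633 CPM in 11C without Dox (replicates 1 and 2) against 452 to 539.5 in the other lines, and to 519 and 489 with Dox against 391 to 425. The sum was thus higher in 11C within each state, and lower with Dox in each of the 6 pairs.

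Factors that make and process histone messages were lower or did not pass. Slbp, which binds the stem-loop, read 66.1 and 54.7 CPM in WT (without, then with Dox), 56.8 and 46.2 in C1, 69.0 and 55.8 in 2C2, 68.3 and 56.9 in C11, 27.1 and 26.2 in 11C replicate 1, and 39.6 and 38.0 in replicate 2. Slbp was thus lower in each 11C library than in any other. By edgeR, Slbp was lower in 11C without Dox, at −1.05 ± 0.26 log2 (adjusted p = 0.0196), and with Dox it did not pass, at −0.77 ± 0.26 (adjusted p = 0.0662). Of the 23 genes of this list, 8 were lower without Dox (34.8%, against 9.86% of all genes) and 5 with Dox (21.7%, against 8.68%), and none higher (medians −0.33 and −0.24). They include Snrpg (−1.30 ± 0.17 without Dox) and Snrpf (−1.28 ± 0.18), Sm proteins of the spliceosome that the U7 particle also holds, and Casp8ap2 (−0.68 ± 0.13), a component of the histone locus body. Npat, the organiser of that body, was lower, at −0.47 ± 0.15 without Dox (adjusted p = 0.0454) and did not pass with Dox (−0.44 ± 0.15). Lsm11, specific to the U7 particle, did not pass in either state (0.47 ± 0.26 and 0.38 ± 0.26).

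Cell cycle genes gave no call upward; over all genes tested, 9.86% were lower in 11C without Dox and 8.68% with Dox, and 9.99% and 7.92% higher. Of 38 genes of S phase and replication, 8 were lower in 11C without Dox (21.1%, median −0.38 log2) and 6 with Dox (15.8%, −0.17), none higher; examples are Ccne2, a cyclin of the entry into S phase (−0.99 ± 0.18 without Dox), and Rrm2, a subunit of ribonucleotide reductase (−0.93 ± 0.20). Of 20 genes of G2 and mitosis, 3 were lower without Dox and 2 with Dox (15.0% and 10.0%, medians −0.07 and −0.17). Of 11 genes of histone mRNA decay, 1 was lower in each state (9.09%, near the share of all genes), the decapping enzyme Dcp2 (−1.11 ± 0.17 and −0.92 ± 0.17), with medians of −0.02 and −0.06. Of 14 feeder markers tested, 3 were higher (21.4%) and 4 lower (28.6%) without Dox (median −0.52), and 1 higher (7.14%) and 4 lower (28.6%) with Dox (−0.43). Of 11 stem cell markers tested, 1 and 3 were lower (9.09% and 27.3%, medians −0.40 and −0.17), Klf4 in both states (−1.34 ± 0.17 and −1.23 ± 0.17). What part any of these had in the histone values was not tested.

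After 24 h Dox, H2B and H1 genes fell in XistDelA, while H3 and H4 genes mostly did not pass. Hist2h2bb, whose value in every library is given above, was lower with Dox in all 3 clones. Hist1h1a, the H1 gene with the highest level per length, read 67.2 and 47.0 CPM in C1 (without, then with Dox), 70.5 and 64.5 in 2C2, 69.5 and 62.3 in C11, and 65.3 and 53.2 in WT. Hist1h2aa, the H2A gene known from testis, read 2.72 and 0.728, 1.09 and 0.843, 1.15 and 0.437, and 1.48 and 0.324. Both were lower with Dox in each clone and in WT.

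By edgeR quasi-likelihood with clone as a block and Benjamini-Hochberg adjustment, 21 of 55 tested members fell with Dox in XistDelA and none rose; 29.7% of 14866 genes were called, 14.8% higher and 14.9% lower. The 4 members too low to test were Hist1h2an, Hist1h2ah, Hist3h2ba and Hist3h2bb-ps. The median log2 change was −0.27 over the members and 0.01 over all genes tested. All 6 H1 genes fell (median −0.33), as did 12 of 15 H2B genes (−0.55), 2 of 12 H2A genes (−0.34), 1 of 10 H3 genes (−0.13) and 0 of 12 H4 genes (−0.15; 1 at unadjusted p under 0.05, and 0 by DESeq2). Hist2h2bb fell by 0.79 ± 0.07 log2 (adjusted p = 4.47e-09), Hist1h2bb by 0.55 ± 0.12 (adjusted p = 0.000488) and Hist1h1a by 0.29 ± 0.06 (adjusted p = 0.000787). The steepest falls were those of Hist1h2aa, by 1.31 ± 0.26 (adjusted p = 0.000298), and its testis partner Hist1h2ba, by 1.04 ± 0.22 (adjusted p = 0.000659). Without clone C1 5 members were called, and without the clone block 0 (16 at unadjusted p under 0.05); DESeq2 with the block called 7.

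Which members were called depended on the tool and on the clones. DESeq2 called H1 and H2B genes alone: Hist1h1a, Hist1h1b, Hist1h1e, Hist1h2bb, Hist1h2bc, Hist1h2bg and Hist2h2bb. Without C1 the 5 called were Hist1h1b, Hist1h2bb, Hist1h2bc, Hist2h2bb and the H2A gene Hist1h2ah. Without 2C2 19 were called, among them the H4 genes Hist1h4a, Hist1h4d and Hist1h4h, and without C11 23, among them the H4 gene Hist1h4c (in these lists, genes outside the naming rule were chosen after values were seen). Hist1h2bc fell by 0.71 ± 0.12 log2 in the edgeR test of all 3 clones (adjusted p = 5.59e-05), and the only H3 gene to fall there, Hist1h3d (chosen after values were seen), by 0.49 ± 0.16 (adjusted p = 0.02).

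**Figure D4:**
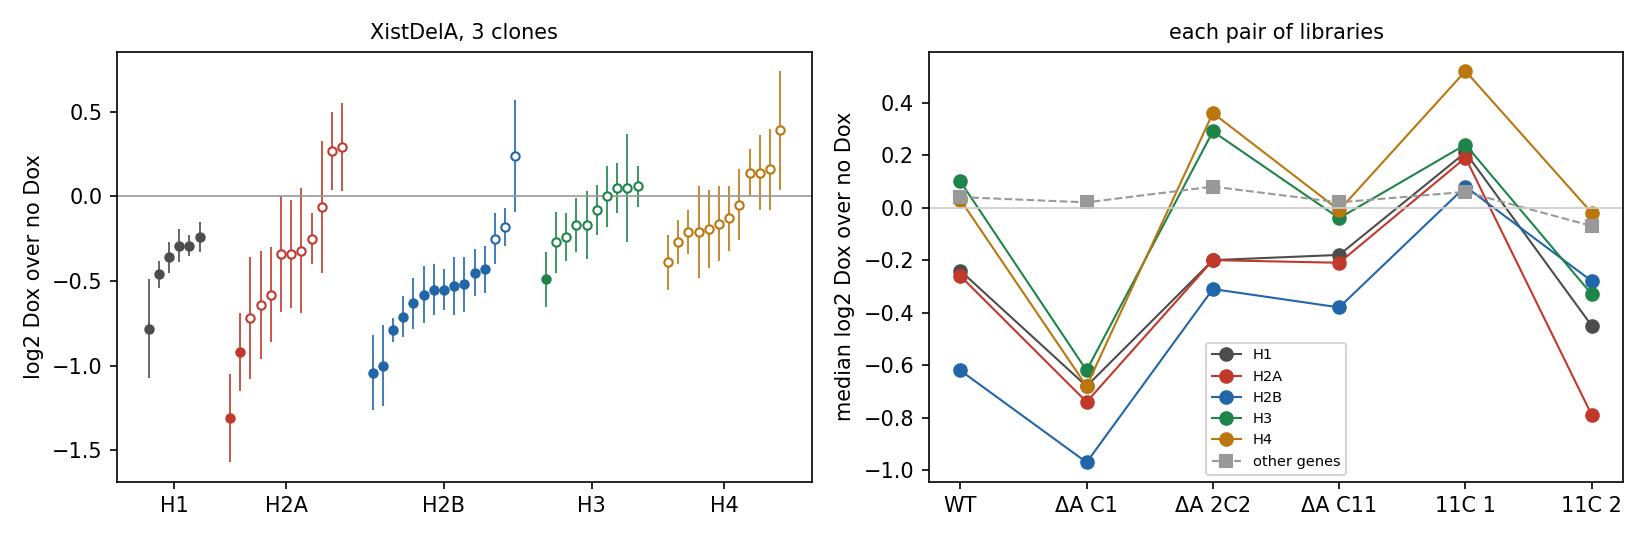
Left: log2 change with Dox of each member in XistDelA, with its standard error, by family; filled points passed the edgeR test. Right: median log2 change of each family and of the other genes in each pair of libraries; H2B is the lowest family in each pair but 11C replicate 2.

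The clones did not move together. In C1, 55 of 58 members were lower with Dox (median log2 −0.73), in C11 44 (−0.17) and in 2C2 29 (0.02), against 47.4%, 46.8% and 39.8% of other genes. All 12 H4 genes were lower in C1, 6 in C11 and 1 in 2C2. H2B genes held their direction better, with 15 of 16 lower in C1, 16 in C11 and 11 in 2C2. In WT, with 1 library per state and no test, 39 members were lower (−0.26), among them 14 of the 16 H2B and all 6 H1 genes but 5 of the 12 H4 genes, against 43.7% of other genes.

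Lists of related genes are read here against 14.8% higher and 14.9% lower over all genes tested. Of 10 replication-independent histone genes tested in XistDelA, 5 fell and 1 rose (median −0.19 log2), and H3f3b, which encodes the variant H3.3 and whose message is polyadenylated, fell by 1.05 ± 0.07 (edgeR, adjusted p = 3.82e-12). Of 38 S phase genes 19 fell and 1 rose (−0.19), with Mcm4, part of the replicative helicase, down by 0.48 ± 0.05 and Pcna, the sliding clamp of the replicative polymerases, by 0.41 ± 0.05. Of 23 genes for making and processing histone messages 10 fell (−0.15), Slbp by 0.32 ± 0.06 and Snrpf by 0.45 ± 0.07. Of 11 decay genes 3 fell (−0.09), of 20 genes of G2 and mitosis 1 fell and 1 rose (5.00% each way, under the share of all genes; median 0.00), and of 13 feeder markers none passed, by edgeR or by DESeq2 (0 at unadjusted p under 0.05). Of 11 stem cell markers 6 fell and 2 rose (−0.17), and of 4 short structured RNAs 2 fell (−0.22). Xist rose by 3.41 ± 0.06. Without the clone block 3 of all genes were called, each higher, so none of the falls in these lists kept its call. What part these changes had in the lower H1 and H2B values was not tested.

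In 11C, the replicates differed in how the histone genes went with Dox. In replicate 1, 13 of 58 members were lower with Dox (median log2 0.30) and in replicate 2 49 (−0.33), against 43.2% and 60.5% of other genes. All 12 H4 genes were higher in replicate 1, and 7 of 12 were lower in replicate 2. Hist1h4d, the H4 gene with the highest level per length, read 48.8 and 71.8 CPM (without, then with Dox) in replicate 1 and 53.4 and 55.3 in replicate 2. Hist1h2aa read 15.5 and 5.86 in replicate 1 and 9.79 and 4.22 in replicate 2, so that it was lower with Dox in both.

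By edgeR quasi-likelihood with Benjamini-Hochberg adjustment, 0 of 59 members changed with Dox in 11C, and 0.00% of 15140 genes were called in either direction (0.00% higher, 0.00% lower); 5 members and 173 genes had an unadjusted p under 0.05, and DESeq2 called 0 members and 3 genes. The median log2 change was −0.04 over the members and 0.00 over all genes. Hist1h2aa stood at −1.33 ± 0.33 (unadjusted p = 0.00639, adjusted p = 1), Hist1h2ba at −0.82 ± 0.27 and Hist3h2a at −0.83 ± 0.29. With 2 libraries a state, a change of this size did not pass. With the replicate number as a block, 5 members were called, 1 higher and 4 lower, among 237 of 15140 genes (34 higher, 203 lower).

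The change with Dox was then compared between 11C and XistDelA, in the libraries already used above. By edgeR quasi-likelihood, 0 of 59 members differed after Benjamini-Hochberg adjustment, as did 0.00% of 15745 genes (0.00% higher, 0.00% lower); 4 members and 233 genes had an unadjusted p under 0.05, and DESeq2 called 0 members and 2 genes. The median difference was 0.25 log2 over the members and −0.01 over all genes. The 4 were Hist1h4c (1.06 ± 0.32), Hist2h2bb (0.60 ± 0.20), Hist1h2bm (1.07 ± 0.45) and Hist1h2ah (1.52 ± 0.68), each higher in 11C and each with an adjusted p of 1 (Hist1h4c and Hist1h2ah chosen after values were seen). With clone or replicate number as a block within each line, 0 members and 117 genes were called (28 higher, 89 lower), and 13 members and 1955 genes had an unadjusted p under 0.05.

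Over all 6 pairs of libraries, a smaller set of genes was lower with Dox in each line, led by the testis pair. Hist1h2ba read 1.92 and 0.720 CPM in WT (without, then with Dox), 2.68 and 0.946 in C1, 1.92 and 1.06 in 2C2, 1.15 and 0.801 in C11, 14.2 and 8.86 in 11C replicate 1, and 13.7 and 7.07 in replicate 2. Hist1h2aa, across the shared promoter from it, was also lower with Dox in each pair, as the values above show. Hist3h2a, the H2A gene of the Hist3 cluster, read 2.44 and 1.30, 4.39 and 1.42, 1.39 and 1.50, 1.34 and 0.801, 11.9 and 7.30, and 13.2 and 6.88, and was lower in 5 of the 6 pairs.

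By edgeR quasi-likelihood with pair as a block and Benjamini-Hochberg adjustment, 13 of 59 members fell over the 6 pairs and none rose; 15.9% of 16254 genes were called, 7.40% higher and 8.52% lower. The median log2 change was −0.17 over the members and 0.01 over all genes tested. The 13 were 5 H2A, 5 H2B, 2 H1 and 1 H3 gene and no H4 gene. Hist1h2aa fell by 1.38 ± 0.16 log2 (adjusted p = 3.19e-05), Hist1h2ba by 0.94 ± 0.13 (adjusted p = 0.000181), Hist3h2a by 0.86 ± 0.15 (adjusted p = 0.000932) and Hist2h2bb by 0.57 ± 0.09 (adjusted p = 0.000744). Hist1h2an and Hist1h2af, H2A genes of the Hist1 cluster, fell by 0.80 ± 0.22 (adjusted p = 0.0188) and 0.64 ± 0.17 (adjusted p = 0.0155). Outside 11C, Hist1h2an had 2 to 10 counts per library and Hist1h2af 3 to 15, so these calls rest on few counts there. Hist1h2an was too low to test within XistDelA. The 6 pairs include those of the tests by line, so the results are not independent of them. Without 11C replicate 1 the count was 24, and without the block 3.

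Counted by sign alone, 8 of 58 members were lower with Dox in all 6 pairs, against 8.86% of all 14993 genes averaging 10 counts or more, and 0 were higher in all 6, against 10.7% of other genes. These counts carry no test. The 8 were Hist1h2aa, Hist1h2ba, Hist1h2ak, Hist1h2an, Hist2h2bb, Hist3h2ba, the linker histone gene Hist1h1e and Hist1h3d (these last chosen after values were seen). Outside 11C, Hist3h2ba had 2 to 14 counts per library and Hist1h2an 2 to 10, so their signs rest on few counts. In WT, Hist3h2ba had 8 counts in each state, and its lower value with Dox (0.288 against 0.296 CPM) came from the scaling alone.

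Reads that cover a difference between the parental genomes give the share of RNA from the 129S copy. For 35 members there were at least 10 such reads per library on average, and their summed 129S share was 48.9% and 49.0% in WT (without, then with Dox), 51.5% and 51.9% in C1, 51.3% and 52.1% in 2C2, and 50.2% and 50.4% in C11. In 11C it was 53.2% and 54.5% in replicate 1 and 54.5% and 53.5% in replicate 2. The summed share was thus near even in every library and highest in 11C. The sum weighs genes by their reads, of which Hist1h1a gave 11800 in 11C; the median of the members' own shares was lower in 11C (48.0% without and 48.4% with Dox) than in XistDelA (51.5% and 52.4%), the opposite order. The summed share of other autosomal genes was 51.2% and 51.1% in 11C replicate 1 (without, then with Dox) and 50.7% and 51.1% in replicate 2, within the range of the other 8 libraries, which ran from 49.8% in C11 with Dox to 52.02% in C1 without. Intervals here and below are 95% Wilson intervals and cover counting error only; that of 11C replicate 1 without Dox, for the members, ran from 52.1% to 54.3%.

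Behind that near-even sum, single genes leaned to opposite copies in 11C. Hist1h2bb had a 129S share of 37.7% and 41.3% in WT, 45.1% and 43.1% in C1, 45.1% and 45.8% in 2C2, and 44.0% and 44.3% in C11, but 80.5% and 82.8% in 11C replicate 1 and 84.4% and 86.6% in replicate 2. Hist1h2bc went the other way, with 43.3% and 56.0% in WT, 37.0% and 51.9% in C1, 54.4% and 38.8% in 2C2, and 40.8% and 46.5% in C11, but 12.02% and 14.6% in 11C replicate 1 and 23.6% and 13.1% in replicate 2. In both genes, which code for H2B, all 4 libraries of 11C lay well outside the range of the other 8, without and with Dox. Pooled, Hist1h2bb had 83.7% (82.0% to 85.2%) in 11C and 43.2% (40.6% to 45.7%) in the others, and Hist1h2bc 15.98% (13.8% to 18.4%) and 45.2% (42.0% to 48.5%).

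Of 33 members with a share in all 12 libraries, 8 had all 11C libraries outside the range of the others, 24.2%, against 5.60% of other autosomal genes and 9.04% of other genes of chromosome 13; no test was run on this. The other 6, chosen after values were seen, were Hist1h2bn (61.7% in the other libraries and 80.9% in 11C, pooled), Hist1h2ab (50.8% and 71.9%), Hist1h3b (72.3% and 84.6%), Hist1h3c (56.4% and 66.5%), Hist1h3i (56.7% and 36.6%) and Hist1h2bl (57.3% and 44.3%). All 8 lie in the Hist1 cluster, as do 31 of the 33, and 5 of the 8 leaned further to 129S in 11C and 3 to Cast. Whole-chromosome shares did not move with them: other genes of chromosome 13 had a 129S share between 51.8% and 52.4% in all 12 libraries, and those of chromosome 3 between 52.8% and 53.4%.

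**Figure D5:**
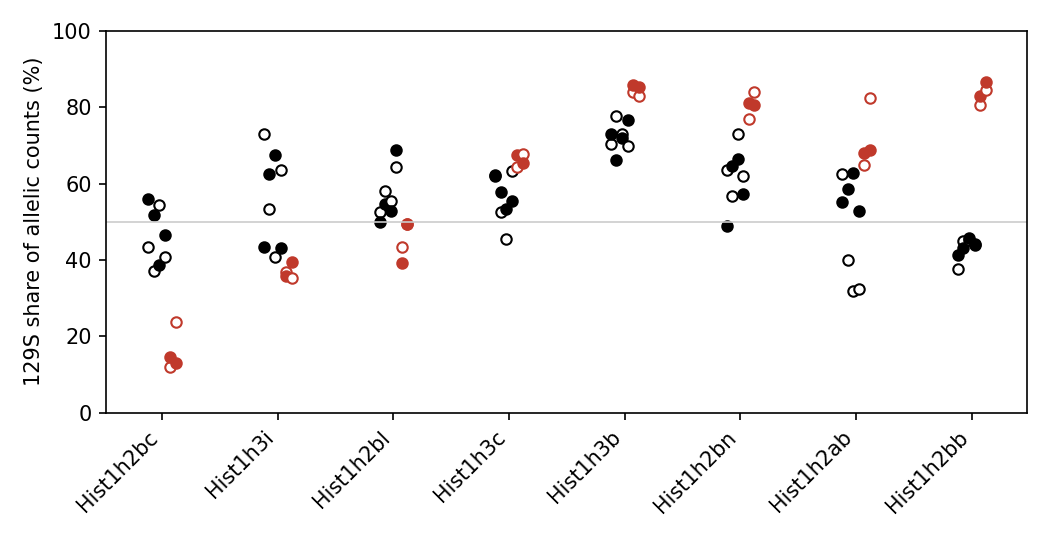
Share of allelic reads from the 129S copy (percent) for the 8 members whose 11C libraries (red) all lie outside the range of the other 8 libraries (black), without Dox (open) and with Dox (filled). Hist1h2bc and Hist1h2bb lie furthest from the others, in opposite directions.

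Elsewhere the members could not be split by copy, or lay on chromosomes with an uneven share. In the stretch chr13:23531043-23581969 (mm10), 14 members from Hist1h4h to Hist1h4d had 58662 counts over the 12 libraries but 7 allelic ones, and on chromosome 3, 4 members of Hist2 had 17657 counts and 2 allelic ones. On chromosome 11 below 100 Mb, which holds Hist3, the 129S share of all genes was 68.9% to 69.2% in 11C and 69.4% to 69.5% in C1, against 52.4% to 56.5% in the other 6 libraries. On chromosome 6 above 120 Mb, which holds Hist4h4, it was 35.3% in C11 and 49.2% to 52.2% in the other 10.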

How the data were processed

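Chromatin-associated RNA of 12 libraries was counted by the authors with featureCounts 1.5.2 on mm10 over whole transcript spans; the deposited files hold counts of read pairs for all reads and for each parental genome, with reads that fit several places or several genes left out. The submitters' processing notes name Bowtie2 2.3.2 and STAR 2.4.2a. Library totals ran from 18893447 to 36007145 counts (median 26552191), of which 6495 to 44719 fell on the members, so that genes with few counts have wide errors. CPM values are counts scaled to these totals.

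Tests used edgeR 4.0.16 (quasi-likelihood, TMM, filterByExpr with a minimum count of 10, Benjamini-Hochberg over all genes tested, threshold 0.05) in R 4.3.3, with DESeq2 1.42.0 beside it; Dox was tested with clone or pair as a block, except in 11C, and the lines were compared in 1 fit of the 10 libraries of 11C and XistDelA. The labels name the clone of each XistDelA library. Over 15745 genes the residuals of the same clone without and with Dox had r of 0.64 (C1), 0.41 (2C2) and 0.57 (C11), and those of different clones −0.50 to −0.08. Residuals were taken from the mean of each group, which by itself pulls r between different clones below 0 when that within clones is above 0. Changes within single pairs use a pseudocount of 0.5 scaled counts. Alternatives were other size factors, totals without short structured RNAs, no filter, DESeq2, each replicate left out, and the block dropped or added. The scripts were tested on simulated data. Promoters came from RefSeq, where 6 members had no promoter entry, and transcripts came from GENCODE.

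Named genes were the 3 members per family with the highest level per length, up to 5 with the largest call per direction and comparison, the Hist2, Hist3 and Hist4 genes, and members known for polyadenylated or testis forms; from other lists, up to 6 genes that passed. Genes outside the rule are marked. The members and lists were chosen with earlier results of these data known.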

Additional observations from a re-analysis of the deposited data

Results flagged for a closer look

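With Dox, 7 named genes outside the family went one way in every XistDelA clone and the other way in both 11C replicates, counted by sign with no least size and in counts scaled by library totals. With the TMM sizes of the tests, an alternative chosen after seeing the data, Ttk was not among them, as it was then 0.06 log2 higher with Dox in 11C replicate 2, and Snrpe, an Sm protein gene, was (0.24). The difference between the lines is given as 11C minus XistDelA in mean log2 change. In the edgeR test of that difference each of the 7 had an adjusted p of 1; with clone or replicate number as a block within each line, Rmrp passed (0.83 ± 0.17, adjusted p = 0.0393) and the other 6 did not (adjusted p from 0.0906 to 0.405). Causes were not tested. Rmrp, the RNA of RNase MRP, differed by 0.79 (−0.24 in XistDelA, 0.55 in 11C, and near 0 in 2C2). The Sm protein genes Snrpf and Snrpg differed by 0.54 (−0.43 and 0.12) and 0.40 (−0.19 and 0.21). Tfcp2l1, a stem cell factor, differed by 0.44 (−0.28 and 0.16). The mitotic kinase genes Ttk and Cdk1 differed by −0.31 (0.20 and −0.11) and 0.22 (−0.08 and 0.13, and near 0 in C1), and Acta2, smooth muscle actin and a feeder marker, by −1.79 (1.45 and −0.34). The Acta2 value rests on 2 to 16 counts per library in XistDelA. Among the named genes and the summed families looked at in this way, no histone family and no named member did the same.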

How the results depend on the processing

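The counts of members called between 11C and XistDelA (46 without Dox, 52 with Dox) stayed within 1.5 times under every alternative run, with 33 to 46 and 46 to 50 called when 1 library was left out. Where that was an 11C library, 1 library stood for 11C in that state and its spread was taken from the other groups, so these runs say little on the spread of 11C. Without replicate 2 in the state without Dox, and by DESeq2, 1 of the members called was lower in 11C. No named call reversed. The Dox counts moved more. In XistDelA, 21 members became 13 with totals without short structured RNAs, 7 by DESeq2, 5 to 23 with 1 clone left out, and 0 without the block or with group means of all 12 libraries. In 11C, 0 became 5 with the replicate number as a block. Residuals of the same replicate number had r of 0.71. That of different numbers, −0.71, adds nothing, since with 2 libraries a state it is minus the first by construction. Over all pairs, 13 became 9 to 24 with 1 pair left out and 3 without the block. Without Hist1h1a, summed levels were 298 and 238 CPM in WT (without, then with Dox), 321 in XistDelA without Dox (main value 390.2) and 1025 in 11C with Dox (main value 1170); with TMM library sizes XistDelA without Dox gave 405. The 129S share in 11C was 48.0% without Dox and 48.4% with Dox as the median of the members' shares, against 53.8% and 54.0% summed. Among the named genes, 527 of the results without Dox between lines kept their call and 71 lost it, 525 and 74 with Dox, 232 and 119 for Dox in XistDelA, and 205 and 59 over all pairs. The cause of these shifts was not tested. With 1 WT library per state, WT values carry no test, and members with few counts or few allelic reads have wide errors.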

Other observations

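Xist itself was measured in the same libraries. It read 298 and 5514 CPM in WT (without, then with Dox), 124 and 1543 in C1, 126 and 1267 in 2C2, 158 and 1600 in C11, 100.1 and 3140 in 11C replicate 1, and 85.6 and 4576 in replicate 2. With Dox it was thus higher in both 11C replicates than in any XistDelA clone, and below WT. By edgeR it was higher in 11C than in XistDelA with Dox by 1.35 ± 0.23 log2 (adjusted p = 0.00494).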
